A study of Mus musculus with 8 samples.

Results

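Eicosanoids are short-lived lipid signals that macrophages make from arachidonic acid. A phospholipase frees the fatty acid from membranes, cyclooxygenases turn it into the precursor of the prostaglandins, and 5-lipoxygenase with its partner protein turns it into the precursor of the leukotrienes. Terminal synthases then set which mediator leaves the cell, and macrophages are known as a source of both families. The genes described here are 10 enzymes of this pathway, chosen by name: Pla2g4a, Ptgs1, Ptgs2, Ptges, Hpgds, Alox5ap, Alox5, Lta4h, Ltc4s and Alox15. All 10 were found in both deposited tables, among 14193 genes with IL-4 and 13676 with PBS.

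The study compared macrophages grown from the marrow of female mice 12 weeks of age that were knocked out for NF-κB-inducing kinase (NIK KO) or wild type (WT), 2 mice per genotype. Marrow cells were kept for 7 days in medium with 30% supernatant of L929 cells that supplies the growth factor M-CSF, and then plated again with 5% of it. The cells of each mouse were then given IL-4 at 20 ng/mL, the cytokine of alternative macrophage activation, or PBS, for 6 hours. The groups were NIK KO with IL-4, WT with IL-4, NIK KO with PBS and WT with PBS, each of 2 libraries, so each of the 4 mice gave 1 library per treatment. No source used here gives the design of the NIK allele, the part of the gene removed or the strain.

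Each deposited table holds 1 comparison of the genotypes, as a mean level (base mean), a log2 fold change with its standard error, and a DESeq2 Wald p-value. Values per library and depths are therefore unknown here. The values below are group means in normalized counts, computed from base mean and fold change, and the authors' fold changes with their standard error. Map3k14, the gene of NIK, was at 832 in libraries labelled NIK KO and 418 in WT with IL-4, and at 902 and 425 with PBS. The authors' log2 fold change was 0.99 ± 0.22 with IL-4 (DESeq2 adjusted p = 0.00782) and 1.09 ± 0.28 with PBS (DESeq2 adjusted p = 0.176). A higher level is not what a loss of the whole transcript would give. Since the part of the gene removed is not known here, the level does not settle the label. The direction of the tables rests on the name of the IL-4 table, for this reason the group is called by its label below. A reversed direction would exchange the genotypes in every value below. Of the markers of macrophages, 8 of 8 were listed in both tables, Csf1r and Lyz2 among the most abundant. The IL-4 response gene Arg1 was at 7136 with IL-4 and 17.3 with PBS in libraries labelled NIK KO, and at 8190 and 30.5 in WT.

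None of the 10 enzymes was called as different between genotypes. At an adjusted p under 0.05, the authors' DESeq2 test called 0 of 10 with IL-4, where 0.125% of all genes were called, and 0 of 10 with PBS, where 0.0366% were. At an unadjusted p under 0.05 the DESeq2 count was also 0 of 10 in both tables, beside 2.95% of all genes with IL-4 and 1.24% with PBS. The lowest unadjusted p was 0.0572 with IL-4 (Alox15) and 0.407 with PBS (Pla2g4a). The median log2 fold change of the 10 genes was -0.19 with IL-4 and -0.14 with PBS, beside -0.01 over all genes tested in each table. With IL-4, 8 of 10 lay below WT in the libraries labelled NIK KO, and with PBS 6 of 10, beside 51.1% and 51.7% of all genes. The enzymes lower in both tables were 5, Pla2g4a, Alox5, Lta4h, Ltc4s and Alox15, and Ptgs1 was the 1 higher in both. The tables share their mice, so these signs are not independent. The 95% Wald intervals of all 10 spanned 0 in both tables. The sections below give intervals for each enzyme, though not always both ends or both treatments.

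**Figure D1:**
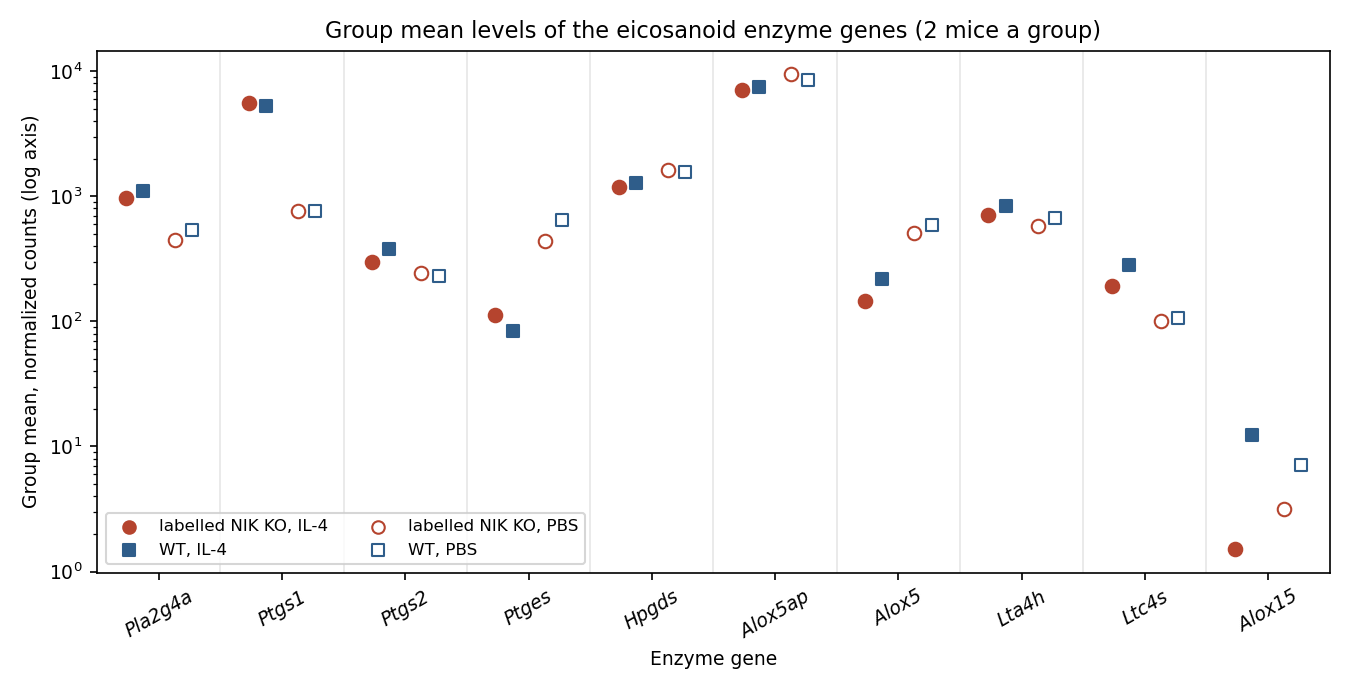
Group mean of each enzyme gene in normalized counts (log axis). Circles are libraries labelled NIK KO and squares are WT, filled for IL-4 and open for PBS, each the mean of 2 mice. The markers of a treatment lie close together for most genes, while those of Ptgs1, Ptges and Alox5 stand apart by treatment.

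**Figure D2:**
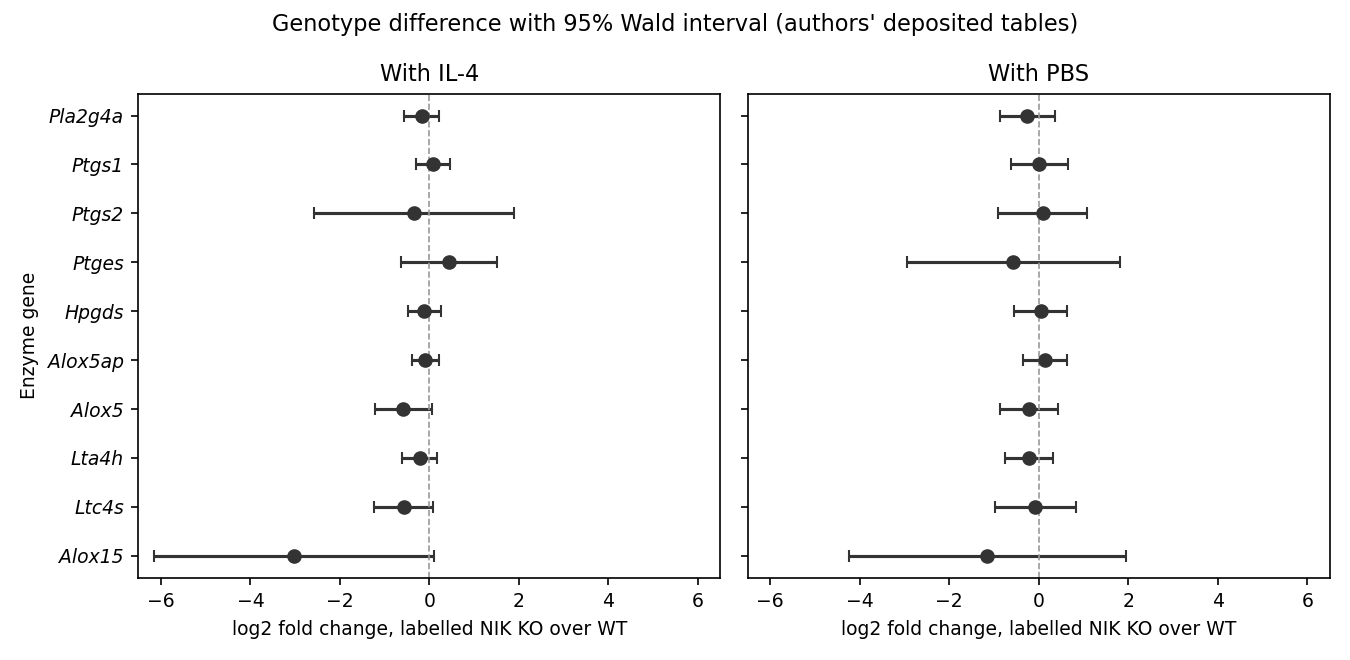
Log2 fold change of each enzyme gene, libraries labelled NIK KO over WT, with its 95% Wald interval, with IL-4 and with PBS. All intervals cross 0, and those of Alox15 in both tables, Ptgs2 with IL-4 and Ptges with PBS are the widest.

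Pla2g4a encodes cytosolic phospholipase A2, the enzyme that frees arachidonic acid for the whole pathway. With IL-4 its group mean was 973 in libraries labelled NIK KO and 1094 in WT, and with PBS it was 450 and 538. The authors' deposited table gives a log2 fold change of -0.17 ± 0.20 with IL-4 and -0.26 ± 0.31 with PBS. The genotypes thus lay within about 1 standard error of each other under both treatments. The interval with IL-4 runs from 1.48-fold lower to 1.17-fold higher in libraries labelled NIK KO. That with PBS runs from 1.83-fold lower to 1.28-fold higher.

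Of the 2 cyclooxygenases, Ptgs1 encodes the constitutive COX-1 and Ptgs2 the inducible COX-2. With IL-4, Ptgs1 was at 5557 normalized counts in libraries labelled NIK KO and 5252 in WT, and with PBS at 768 and 762. The fold change in the authors' deposited table was 0.08 ± 0.19 with IL-4 and 0.01 ± 0.33 with PBS. The interval runs from 0.817-fold to 1.37-fold with IL-4 and from 0.646-fold to 1.57-fold with PBS. Platelets and their precursors also hold Ptgs1. Of 6 platelet and megakaryocyte markers, Pf4, Ppbp and Itga2b were listed, and Gp9, Gp1bb and Gp6 in neither table. The listed markers summed to 1101 in libraries labelled NIK KO and 974 in WT with IL-4, and to 884 and 739 with PBS. Nearly all of each sum was Pf4, so the sums mostly follow that gene. Pf4 and Ppbp were higher in libraries labelled NIK KO under both treatments. Itga2b was lower there, at 6.45 against 15.2 in WT with IL-4 and 17.9 against 24.2 with PBS. The part of these markers in the level of Ptgs1 was not tested.

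Ptgs2 was at 298 in libraries labelled NIK KO and 377 in WT with IL-4, and at 246 and 231 with PBS. The authors' deposited table gives -0.34 ± 1.14 with IL-4 and 0.09 ± 0.51 with PBS. The error with IL-4 was 4.37 times the median of the 200 genes nearest in base mean, and larger than in all of them (100%). Under the negative binomial model such an error corresponds to a coefficient of variation of 78.7% between mice of a group, against 13.1% for Ptgs1. Levels from 5.94-fold lower to 3.71-fold higher in libraries labelled NIK KO lie within the interval of Ptgs2 with IL-4. Its genotype difference was thus not determined by these libraries.

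Ptges encodes microsomal prostaglandin E synthase 1, which makes PGE2 from the product of the cyclooxygenases. Its means were 113 in libraries labelled NIK KO and 83.5 in WT with IL-4, and 441 and 653 with PBS. The authors' deposited table puts it at 0.44 ± 0.55 with IL-4 and -0.57 ± 1.21 with PBS, so the sign differed between treatments and both values lay within 1 standard error of 0. Here the wide error was that with PBS, 4.21 times the median of the 200 genes nearest in base mean, with an implied coefficient of variation of 83.9%. Its interval with PBS runs from 7.68-fold lower to 3.51-fold higher in libraries labelled NIK KO. That with IL-4 runs from 0.645-fold to 2.84-fold.

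Such wide errors were rare among well-measured genes. Among genes of base mean 100 or more, a standard error over 1 was found for 28 of 9513 with IL-4 (0.294%) and 44 of 9266 with PBS (0.475%). Ptgs2 stood 16th in error among those with IL-4 and Ptges 31st among those with PBS. In the same range lay Saa3, an acute phase protein, at 0.01 ± 1.32 with IL-4 and 0.13 ± 1.27 with PBS in the authors' deposited table. The neutrophil chemokine Cxcl1 was at -1.06 ± 1.14 with IL-4 and -0.73 ± 1.16 with PBS, and Acod1, which makes itaconate in activated macrophages, in the authors' deposited table at 0.16 ± 1.13 and 0.09 ± 1.06. These genes were chosen after their values were seen. Which libraries lie behind these errors cannot be read from the tables.

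**Figure D3:**
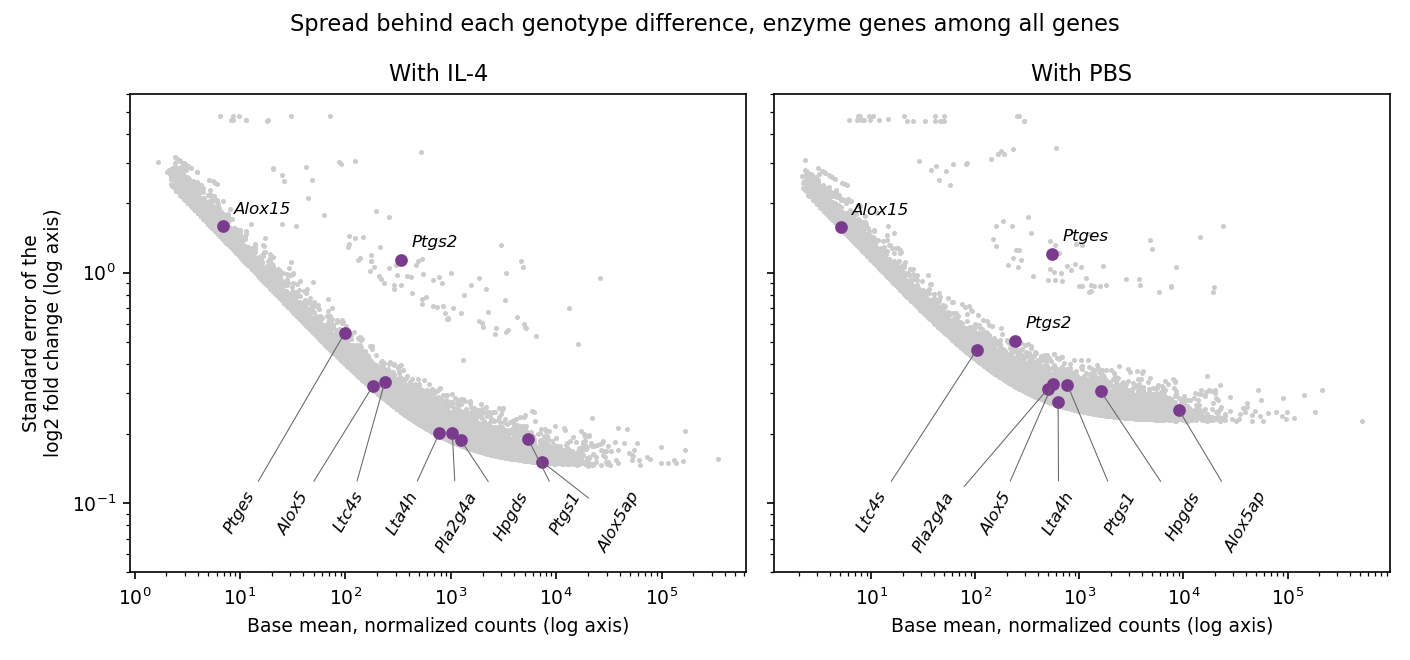
Standard error of the log2 fold change against base mean (both log axes) for all genes (grey) and the 10 enzymes (purple), with IL-4 and with PBS. Ptgs2 with IL-4 and Ptges with PBS stand far above the band of genes of like level. Ptgs2 with PBS and Ptges with IL-4 lie at its upper edge, with a larger error than 99% and 97% of the 200 genes nearest in base mean.

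Hpgds encodes the haematopoietic prostaglandin D synthase, which takes the cyclooxygenase product to PGD2. It was at 1188 in libraries labelled NIK KO and 1286 in WT with IL-4, and at 1616 and 1573 with PBS. The authors' deposited table gives -0.11 ± 0.19 with IL-4 and 0.04 ± 0.31 with PBS. The interval with IL-4 reaches 1.40-fold lower and that with PBS 1.56-fold higher. Among the prostaglandin enzymes, then, Ptgs1 and Hpgds were bounded closely, and Ptges and Ptgs2 were each poorly determined under 1 treatment.

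In the leukotriene arm, Alox5ap encodes FLAP, the membrane protein that hands arachidonic acid to 5-lipoxygenase, and was by far the most abundant of the 10. Its means were 7077 in libraries labelled NIK KO and 7526 in WT with IL-4, and 9438 and 8593 with PBS. The fold change in the authors' deposited table was -0.09 ± 0.15 with IL-4 and 0.14 ± 0.25 with PBS. With IL-4 its interval reaches 1.31-fold lower, the narrowest of the 10, and the small negative value became 0.02 when fold changes were centred within classes of transcript length.

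Alox5, the 5-lipoxygenase itself, was at 146 in libraries labelled NIK KO and 220 in WT with IL-4, and at 511 and 595 with PBS. The authors' deposited table gives -0.59 ± 0.32 with IL-4 (DESeq2 unadjusted p = 0.0700, adjusted p = 1.000) and -0.22 ± 0.33 with PBS. The value with IL-4 is 0.666-fold, with an interval from 0.429-fold to 1.03-fold. Neutrophils also express Alox5 strongly. Of 8 neutrophil markers, 4 were listed with IL-4 and 5 with PBS, and Ly6g and Elane were listed in neither. The listed markers summed to 163 in libraries labelled NIK KO and 233 in WT with IL-4, and to 193 and 214 with PBS. Of the listed markers 1 was higher in libraries labelled NIK KO and 3 lower with IL-4, and 3 were higher and 2 lower with PBS. The most abundant, S100a8, was at 76.2 in libraries labelled NIK KO and 133 in WT with IL-4, and at 89.7 and 130 with PBS. The part of these markers in the values of Alox5 was not tested.

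Ltc4s encodes leukotriene C4 synthase, the first step towards the cysteinyl leukotrienes, and Lta4h the hydrolase that makes the neutrophil attractant leukotriene B4. With IL-4, Ltc4s was at 191 in libraries labelled NIK KO and 283 in WT, and with PBS at 100.4 and 105.7. In the authors' deposited table it stood at -0.57 ± 0.34 with IL-4 (DESeq2 unadjusted p = 0.0893, adjusted p = 1.000) and -0.07 ± 0.46 with PBS. Its interval with IL-4 runs from 0.426-fold to 1.06-fold. Its transcript, of 716 bases at the longest, falls in the shortest of 5 equal classes of transcripts, whose median was -0.11 with IL-4. Centred within these classes, the value of Ltc4s with IL-4 was -0.46.

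Lta4h was at 715 in libraries labelled NIK KO and 833 in WT with IL-4, and at 577 and 669 with PBS. The authors' deposited table gives -0.22 ± 0.20 with IL-4 and -0.21 ± 0.27 with PBS, nearly the same value under both treatments. The interval of Lta4h runs from 0.654-fold to 1.13-fold with IL-4 and from 0.594-fold to 1.25-fold with PBS. Mast cells and basophils hold much Hpgds, Alox5 and Ltc4s. Of 8 mast cell markers only Hdc and Kit were listed in each table, and Cpa3, Cma1, Mcpt4, Tpsb2, Fcer1a and Ms4a2 in neither. Of 4 basophil markers, Gata2 and Cd200r3 were listed in each table, and of 4 eosinophil markers only Ccr3. The listed mast cell markers summed to 84.8 in libraries labelled NIK KO and 66.7 in WT with IL-4. With PBS they summed to 61.2 and 33.4. Basophil markers summed to 35.65 and 40.4 with IL-4, and to 14.1 and 29.4 with PBS. Ccr3 was at 74.5 and 53.4 with IL-4, and at 63.6 and 32.0 with PBS. Their part in the values of Hpgds, Alox5 and Ltc4s was not tested.

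Alox15, which in the mouse makes mainly the 12-hydroxy product of arachidonic acid and in human monocytes is known as an IL-4 target, was near the limit of detection. Its means were 1.52 in libraries labelled NIK KO and 12.3 in WT with IL-4, and 3.18 and 7.09 with PBS. The authors' deposited table gives -3.02 ± 1.59 with IL-4 (DESeq2 unadjusted p = 0.0572, adjusted p = 1.000) and -1.16 ± 1.58 with PBS. At these levels the interval with IL-4 runs from 0.0142-fold to 1.07-fold, so neither no change nor a deep loss lies outside it. By likeness of its 4 group means, on the log2 scale and centred on each gene's own mean, the nearest of 9148 genes of base mean 100 or more were Gdf3 (distance 1.06), Slc43a3 (1.40) and Cxcl3 (1.45). With 4 means, and those of Alox15 near 0, this is a description only.

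No difference of the genotype effect between treatments was called for the 10 enzymes. The difference of the log2 fold changes, IL-4 minus PBS, was tested by its normal z over all 13384 genes in both tables, of which 0.0149% were called. The errors of the tables were taken as independent, though the same mice stand behind both. A positive correlation would narrow the errors and intervals given here. With errors taken as correlated at 0.5, 20 of all genes were called, against 2, and 0 of the enzymes. Of the 10 enzymes 0 were called and 0 had an unadjusted p under 0.05, beside 0.867% of all genes, the lowest being 0.385 for Ltc4s, at -0.50 ± 0.57. The difference of Alox5ap was -0.22 ± 0.30 and that of Ptgs1 0.07 ± 0.38. Intervals of these differences run from -0.80 to 0.36 for Alox5ap and from -0.67 to 0.81 for Ptgs1, but from -2.87 to 2.01 for Ptgs2 and from -1.60 to 3.61 for Ptges. The only other tests of the difference were this test under changed settings, which also called 0 of the enzymes.

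Leaving out Alox15, which was near the limit of detection, the largest contrasts of the enzymes lay between treatments, within each genotype. The tables were normalized separately, so levels across them carry no test, and the median gene of base mean 100 or more in both lay 0.28 higher on the log2 scale with IL-4 in libraries labelled NIK KO and 0.26 higher in WT. Ptgs1 was 7.24-fold higher with IL-4 in libraries labelled NIK KO and 6.89-fold higher in WT. Only 17 of the 9148 genes at that base mean in both tables had a higher ratio in either genotype. Genes low in a table, such as Arg1 with PBS, are left out of that count. Relative to the median gene the ratios of Ptgs1 were 5.98-fold and 5.74-fold.

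Ptges stood at the other end. It was at 113 with IL-4 and 441 with PBS in libraries labelled NIK KO, and at 83.5 and 653 in WT, or 0.256 and 0.128 of the PBS level. Of 9148 genes, 10 had a lower ratio in libraries labelled NIK KO and 0 in WT, with the wide error of Ptges with PBS beside it. The 9148 genes had to reach a set base mean in both tables. Ptges, at a base mean of 98.2 with IL-4, did not reach it and was not among them. Other genes low with IL-4 are left out too, so these counts do not rank Ptges among all genes. Alox5 was at 0.287 of its PBS level in libraries labelled NIK KO and 0.370 in WT, with 14 and 25 genes lower. Pla2g4a was 2.16-fold higher with IL-4 in libraries labelled NIK KO and 2.03-fold higher in WT, and 1.79-fold and 1.69-fold relative to the median gene.

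Ltc4s was 1.90-fold higher with IL-4 in libraries labelled NIK KO and 2.68-fold higher in WT. Hpgds and Alox5ap were lower with IL-4 in both genotypes, at 0.735 and 0.750 of the PBS level in libraries labelled NIK KO and 0.817 and 0.876 in WT. Lta4h had a ratio of 1.24-fold in both, close to the median gene. Ptgs2 had 1.21-fold in libraries labelled NIK KO and 1.63-fold in WT, within its spread. Alox15 was at 0.477 of its PBS level in libraries labelled NIK KO and 1.74-fold higher with IL-4 in WT. Past 2-fold in the same direction in both genotypes were 4 of the 10, Pla2g4a, Ptgs1, Ptges and Alox5, or 3 relative to the median gene, without Pla2g4a. Of all 9148 genes, 5.78% lay past 2-fold in libraries labelled NIK KO and 4.63% in WT. These shares take each genotype alone, in either direction and without re-centring, over genes that leave out Ptges and Alox15. They are thus not the share for the rule used on the enzymes, which was not computed.

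**Figure D4:**
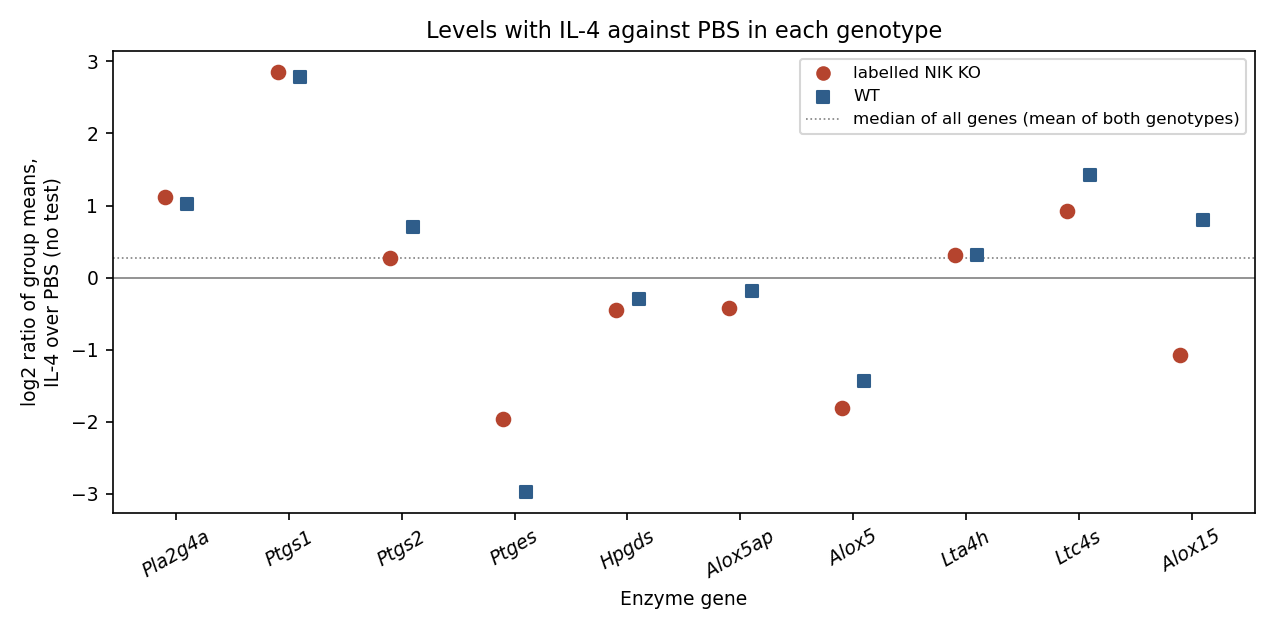
Log2 ratio of group means, IL-4 over PBS, for each enzyme gene in libraries labelled NIK KO (circles) and WT (squares), with no test. The dotted line is the median of all genes of base mean 100 or more. Ptgs1 lies at 2.86 and 2.78, and Ptges and Alox5 lie below -1.4 in both genotypes.

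The promoters of the 3 genes past 2-fold on both scales are printed because their levels set the treatments apart. They run from 250 bases before to 50 bases after the annotated start, in gene orientation, from RefSeq on GRCm38.p6. Capitals mark matches, on either strand, to 2 sets of letters, TTC and GAA with any 4 bases between them (the type bound by STAT6, the factor of IL-4 signalling) and GGG and CC with any 5 between (a loose form of the NF-κB site). Ptgs1 lies at chr2:36230176-36230475 on the plus strand, Ptges at chr2:30903248-30903547 on the minus strand and Alox5 at chr6:116461129-116461428 on the minus strand.
Ptgs1: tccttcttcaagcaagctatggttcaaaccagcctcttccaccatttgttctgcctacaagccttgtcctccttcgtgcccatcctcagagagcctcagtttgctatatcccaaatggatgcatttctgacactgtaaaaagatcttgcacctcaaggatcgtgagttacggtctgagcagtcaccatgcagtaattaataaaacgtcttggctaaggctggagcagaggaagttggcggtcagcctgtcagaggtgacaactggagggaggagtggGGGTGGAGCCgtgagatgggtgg
Ptges: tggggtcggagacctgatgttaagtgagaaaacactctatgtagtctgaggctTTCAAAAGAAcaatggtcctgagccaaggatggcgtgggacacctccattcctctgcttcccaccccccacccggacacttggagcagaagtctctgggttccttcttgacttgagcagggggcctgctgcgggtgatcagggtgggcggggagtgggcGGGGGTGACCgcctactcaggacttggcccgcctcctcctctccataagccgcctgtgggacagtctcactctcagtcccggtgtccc
Alox5: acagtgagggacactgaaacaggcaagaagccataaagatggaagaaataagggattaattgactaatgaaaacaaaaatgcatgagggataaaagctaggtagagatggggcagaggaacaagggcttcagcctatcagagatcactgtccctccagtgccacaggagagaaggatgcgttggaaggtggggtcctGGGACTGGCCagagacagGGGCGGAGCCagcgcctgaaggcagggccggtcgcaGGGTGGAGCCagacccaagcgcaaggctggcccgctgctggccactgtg
The STAT6 type was matched once, in Ptges. Over all RefSeq promoters of this length, 6.95% hold it and 50.8% hold the loose NF-κB type. Of the 10 enzymes 8 had a promoter in the table, 9 promoters in all, of which 1 held the STAT6 type and 5 the NF-κB type, those of Ptgs1, Ptgs2, Ptges, Alox5 and Lta4h. No promoter of Alox5ap or Alox15 was at hand, so these were not searched. A match is a description of the letters and not a site.

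Levels of different enzymes can be set side by side only per length, here as normalized counts per kilobase of the longest transcript, averaged over both genotypes. With IL-4 the order was Alox5ap (5837), Ptgs1 (1885), Ltc4s (331), Hpgds (318), Pla2g4a (299), Lta4h (240.0), Ptgs2 (75.8), Alox5 (51.2), Ptges (26.9) and Alox15 (2.88). Ltc4s did not differ beyond the spread from Hpgds, nor Hpgds from Pla2g4a, nor Ptgs2 from Alox5. With PBS the order was Alox5ap (7207), Hpgds (410), Ptgs1 (267), Lta4h (193), Alox5 (155), Ptges (150), Ltc4s (144), Pla2g4a (143), Ptgs2 (53.5) and Alox15 (2.13), and from Lta4h to Pla2g4a no neighbours differed beyond their spread. FLAP transcripts thus exceeded those of its partner 5-lipoxygenase by far under both treatments, and Ptgs1 exceeded Ptgs2.

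Around these enzymes, 84 further symbols of the pathway were listed by role, some of them older and newer names of 1 gene. Of these, 67 were found with IL-4 and 61 with PBS. The authors' DESeq2 test called 0 at an adjusted p under 0.05 in each table, beside 0.125% of all genes with IL-4 and 0.0366% with PBS. At an unadjusted p under 0.05 there were 3 of 67 with IL-4, 1 higher and 2 lower, beside 2.95% of all genes. With PBS there was 1 of 61, lower, beside 1.24%. With IL-4, 38 were higher and 29 lower (median 0.03), and with PBS 30 were higher and 31 lower (median -0.01), beside the median of -0.01 over all genes in each table. Of all genes 51.1% were lower with IL-4 and 51.7% with PBS. The counts by role below are of few genes each, from tables that share their mice, and were not tested.

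Nearest to a call was the receptor Cmklr1, which binds chemerin and has been proposed as a receptor for a resolvin. It was at 882 in libraries labelled NIK KO and 493 in WT with IL-4, and at 455 and 333 with PBS. The authors' deposited table gives 0.84 ± 0.23 with IL-4 (DESeq2 unadjusted p = 2.87e-04, adjusted p = 0.141) and 0.45 ± 0.30 with PBS. Among the other receptors, Ptger1, a receptor for PGE2, was at -0.02 ± 0.33 with IL-4 and -0.76 ± 0.41 with PBS in the authors' deposited table. Of 13 receptors listed with IL-4 8 were higher, and of 10 with PBS 5 were.

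Of the other lipoxygenases and leukotriene enzymes, 6 of 9 were lower with IL-4 (median -0.086) and 4 of 8 with PBS (median -0.045). Mgst2, a microsomal glutathione transferase that can also make leukotriene C4, was at 107 in libraries labelled NIK KO and 178 in WT with IL-4, and at 202 and 261 with PBS. The authors' deposited table gives -0.74 ± 0.36 with IL-4 (DESeq2 unadjusted p = 0.0422, adjusted p = 1.000) and -0.37 ± 0.33 with PBS. Its relative Mgst3 was at -0.37 ± 0.25 with IL-4 and -0.35 ± 0.28 with PBS in the authors' deposited table.

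Ptgr1, which inactivates leukotriene B4 and prostaglandin metabolites, was at 1291 in libraries labelled NIK KO and 1799 in WT with IL-4, and at 1586 and 2059 with PBS. The authors' deposited table gives -0.48 ± 0.20 with IL-4 (DESeq2 unadjusted p = 0.0194, adjusted p = 1.000) and -0.38 ± 0.26 with PBS. Abcc1, which exports leukotriene C4, was at 0.15 ± 0.17 with IL-4 and -0.01 ± 0.23 with PBS in the authors' deposited table. The role of inactivation and transport had 4 of 7 higher with IL-4 and 3 of 6 with PBS.

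Among terminal prostanoid synthases 6 of 7 were lower with IL-4 (median -0.20) and 4 of 6 with PBS (median -0.09). Cbr1, a carbonyl reductase that acts on PGE2, was at -0.36 ± 0.22 with IL-4 and -0.09 ± 0.29 with PBS, and Fam213b, a prostamide and prostaglandin F synthase, at -0.29 ± 0.25 and -0.13 ± 0.29, in the authors' deposited table. In substrate release 11 of 15 were higher with IL-4 (median 0.15) and 8 of 15 with PBS (median 0.07). Pla2g7, the acetylhydrolase of platelet-activating factor, was at -0.27 ± 0.21 with IL-4 and -0.21 ± 0.28 with PBS in the authors' deposited table. Pla2g4b, a paralogue of Pla2g4a, was at 15.1 in libraries labelled NIK KO and 10.04 in WT with IL-4, and at 3.03 and 25.3 with PBS. It stood at 0.59 ± 1.17 with IL-4 and -3.06 ± 1.04 with PBS (DESeq2 unadjusted p = 0.00329, adjusted p = 1.000) in the authors' deposited table.

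Enzymes that return arachidonic acid to membranes were higher for 7 of 9 in each table (median 0.12 with IL-4 and 0.14 with PBS). Acsl3 was at 0.21 ± 0.27 with IL-4 and 0.40 ± 0.31 with PBS, and Lpcat3 at 0.28 ± 0.19 and -0.26 ± 0.32, in the authors' deposited table. Of the epoxide and omega-hydroxylase enzymes 4 of 7 were higher with IL-4 (median 0.01) and 1 of 7 with PBS (median -0.49). The hydrolase gene Ephx1 was at -0.17 ± 0.24 with IL-4 and -0.49 ± 0.31 with PBS, and Cyp4f13, a cytochrome P450, at 0.01 ± 0.27 and -0.53 ± 0.34, in the authors' deposited table.

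**Figure D5:**
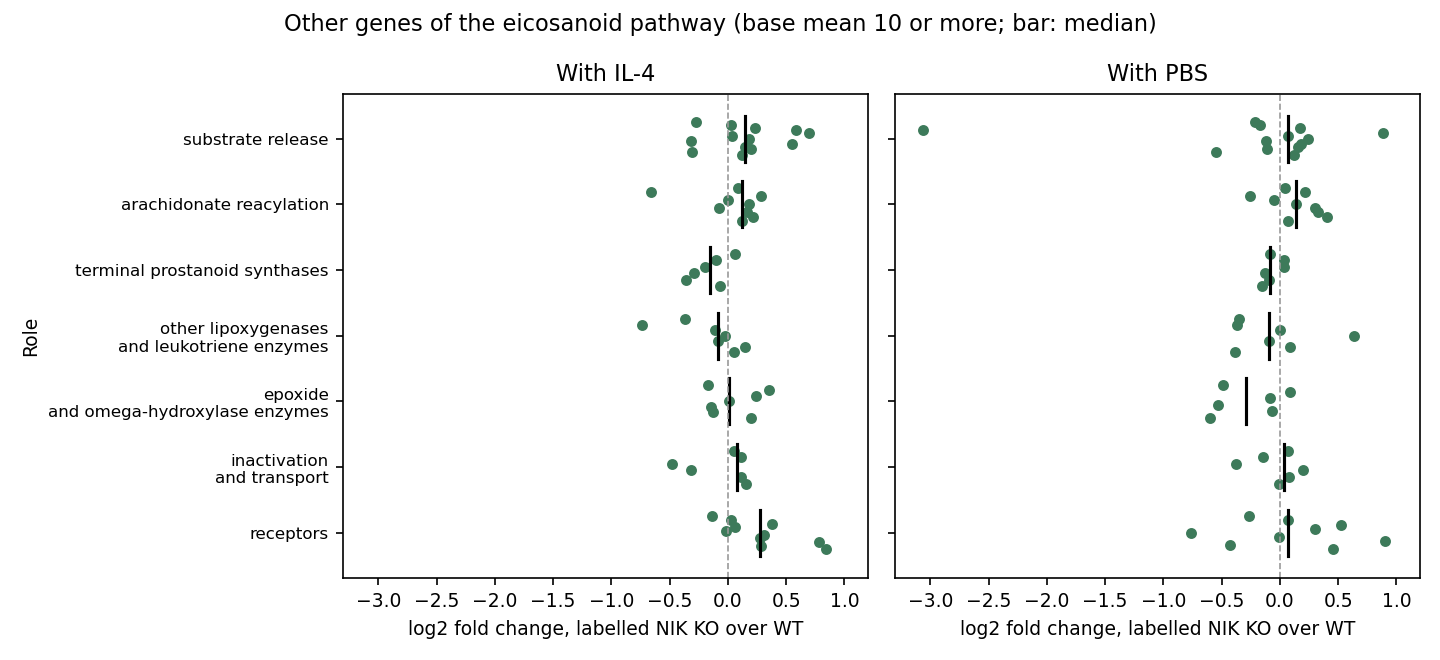
Log2 fold change, libraries labelled NIK KO over WT, of the other pathway genes of base mean 10 or more, by role, with IL-4 and with PBS. Points are genes and bars are medians over the genes drawn. Most points lie within 1 of 0 on the log2 scale, with Pla2g4b at -3.06 with PBS outside that range.

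Fibroblasts are known to express Ptgs2 and Ptges. Of 8 fibroblast markers, 1 was called by the authors' DESeq2 test with IL-4, beside 0.125% of all genes, and 4 had an unadjusted p under 0.05, beside 2.95%. All 8 were listed with IL-4, 6 of them lower in libraries labelled NIK KO, and summed to 152 there and 418 in WT. With PBS 7 were listed, 5 of them lower, and summed to 110 and 131. The most abundant with IL-4 were Col3a1, Col1a2 and Col1a1, for which the authors' deposited table gives -2.34 ± 0.53, -1.52 ± 0.49 and -1.51 ± 0.52. Of these Col3a1 was called (DESeq2 adjusted p = 0.0107). Erythroid markers, 4 of 5 listed with IL-4, summed to 100.2 in libraries labelled NIK KO and 236 in WT, with 3 lower at an unadjusted p under 0.05 and 0 called by DESeq2 (lowest adjusted p = 0.772, Hbb-bt at -2.15 ± 0.75 in the authors' deposited table). With PBS 3 were listed, and summed to 67.8 in libraries labelled NIK KO and 59.8 in WT. The part of either marker list in the values of Ptgs2 and Ptges was not tested. In such bulk samples fewer cells of a type and less RNA per cell cannot be told apart.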

How the data were processed

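RNA of 8 libraries, 4 groups of 2, was measured by sequencing. The submitters' processing notes name build GRCm39, DESeq2 1.32.0 and Salmon 1.4.0, with no settings. For each gene the authors deposited, per the file headers, a base mean (a signal: counts divided by size factors, averaged over libraries), a log2 fold change with its standard error on the log2 scale, a Wald statistic (a score), and p-values, raw and adjusted. The IL-4 table lacks an adjusted p for 551 genes, which were left so. Group means were recovered from base mean and fold change, which assumes equal group sizes. A gene was called at adjusted p under 0.05. Intervals are 95% Wald intervals. The implied coefficient of variation is the part of the squared error left after counting noise. All 10 members were named, and of the wider list the 2 genes per role with the largest absolute statistic at base mean 10 or more. Where a symbol had several rows, the row of highest base mean was used.

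The members and lists were chosen with earlier results of these data known. Transcript lengths came from GENCODE M21 on GRCm38, which is not the authors' build. At most 1.78% of a member's 31-base words (Hpgds) also occur in another gene. Exons of Ptgs1, Alox5ap and Ltc4s are overlapped on the opposite strand by 3 genes, of which 0 were listed in the tables, and no source used here states the strand setting. The mice were separate animals. The adjustment and the difference test were also run on simulated data. The simulated errors were drawn independently for each table, so that run could not show what shared mice do to the difference test. Software was scipy 1.17.1, pandas 2.3.3, numpy 2.4.6 and matplotlib 3.10.9 under Python 3.11.15.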

Additional observations from a re-analysis of the deposited data

How the results depend on the processing

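The count of enzymes called was 0 in both tables under every alternative run: an adjusted p under 0.1, adjustment over all genes or over genes of base mean 10 or more, a t distribution with 2 degrees of freedom, re-centring on the median gene, and centring within 5 classes of transcript length. The t distribution called 0 of all genes as well, so it says nothing of the enzymes. Only re-centring on the median gene and centring within length classes alter a fold change. Under the other alternatives its sign could not change, and only the call could. Of 120 values for the 20 fold changes, 119 kept their sign and call. The exception was Alox5ap with IL-4, which became 0.0232 when centred within those classes. For the difference between treatments, errors taken as correlated at 0.5 moved the calls over all genes to 20, against 2, and the enzymes called stayed at 0. The ratios of IL-4 over PBS of Alox5ap in both genotypes and of Lta4h in libraries labelled NIK KO moved by more than their spread when re-centred. The adjusted p of Cmklr1 with IL-4 ranged from 0.125 to 0.168 over 4 of the alternatives. No paired analysis was possible because the tables hold no values per library, and no replicate could be left out for the same reason. Depth is unknown, and with 2 mice a group the errors rest in part on the authors' fit across genes.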

Other observations

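Beside Ptgs2 and Ptges, 2 genes of the wider pathway of base mean 100 or more had errors over 1 on the log2 scale. The authors' deposited table gives Fpr2, a receptor for formyl peptides reported to bind the lipid mediator lipoxin A4, at 0.28 ± 1.34 with IL-4 and -0.01 ± 1.32 with PBS. Hpgd, which inactivates prostaglandins, was at -0.32 ± 0.53 with IL-4 and 0.20 ± 1.26 with PBS in the authors' deposited table. In error they stood 8th (Fpr2, with IL-4), and 25th and 28th (Fpr2 and Hpgd, with PBS), among genes of base mean 100 or more. Errors over 1 in both tables were shared by 14 genes at that level, among them Fpr2, Cxcl1, Cxcl3, Saa3, Acod1, Ccl5, Cfb and Gpr84. These are 14 of the 28 such genes with IL-4 and 14 of the 44 with PBS. The genes were chosen after their values were seen, and no test was run on them.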
